A study of Homo sapiens with 8 samples.

Results

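The clustered protocadherin genes are 53 protein-coding genes that stand side by side on the long arm of human chromosome 5. They were taken from the RefSeq gene table of GRCh38.p14 as every protein-coding gene of that chromosome whose symbol starts with PCDHA, PCDHB or PCDHG, which gave 15 alpha, 16 beta and 22 gamma genes. The universe for comparison was 15818 protein-coding genes of chromosomes 1 to 22 and X with an assigned strand. All 53 members lie on the plus strand between positions 140786140 and 141512975, a span of 727 kb. With 100 kb added on either side, the 8 ATAC-seq peak lists held 62 merged regions in this window, of 69131 in the genome. Of the 62 regions, 48 had a clustered protocadherin as the nearest protein-coding gene, and 38 of those lay within 1 kb of a member's start.

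ATAC-seq, in which a transposase inserts adapters into accessible DNA, was run on H1975 and HCC44, both human lung cancer cell lines. Each line received either DMSO, the solvent control, or ACBI1 for 96 h, with a labelled dose of 1 mM and 2 replicates in each of the 4 groups. ACBI1 is a degrader molecule that directs SMARCA2, SMARCA4 and PBRM1, which are subunits of SWI/SNF chromatin remodelling complexes, to the proteasome. All 8 samples carry the genotype label WT, each line is a single established line, and the labels do not say whether replicates came from separate cultures, so the spread between them may be technical. The protein levels of the ACBI1 targets were not analysed here, and no transcript was measured, so the results concern listed accessibility peaks and not expression.

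Clustered protocadherins are cadherin-like adhesion proteins best known from neurons, where each cell uses its own small set of them and the proteins let a cell tell its own branches from those of others. Each alpha and gamma gene has a promoter and a first exon of its own, and this exon is spliced to constant exons shared by the whole cluster at its far end, so all alpha genes end at one position and all gamma genes at another. The beta genes are single-exon genes without shared exons. The last genes of the alpha and gamma clusters, PCDHAC1, PCDHAC2, PCDHGC3, PCDHGC4 and PCDHGC5, are known as C-type genes and are used more evenly between neurons. Most of the promoters carry a conserved element with the letters CGCT at its core, where the insulator protein CTCF can bind and, together with cohesin, join a promoter to an enhancer; DNA methylation of the promoter is known to block this. In tumours, the clusters are known as a frequent site of promoter methylation.

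Promoter sequence was taken from RefSeq (GRCh38.p14), which gave 300 bases, 250 before and 50 after the start, for 47 of the 53 members. PCDHA3, PCDHA13, PCDHB6, PCDHB11, PCDHGA12 and PCDHGC5 had no entry. The letters CGCT, searched on both strands, were present in 46 of the 47 promoters (97.9%), against 70% of 35116 promoters in the table. PCDHA9 was the exception. The stretches below show 28 bases around letters CGCT, called the box here and set in capitals, with the plus strand read 5′ to 3′. Marked was the first CGCT found on that strand in a short window before the start. Whether these letters are the conserved element in a given promoter was not tested. Printed are the first gene of each cluster and the last of the alpha and beta clusters, with others chosen after their values were seen: genes that resemble each other but differ in their peaks, and PCDHAC1 and PCDHGC3, which had peaks in all 8 samples. In the alpha cluster, 8 of 13 promoters held TGATGTCGCT, which occurred on either strand in 0.0342% of all promoters.
PCDHA1, chr5:140786086-140786113: attggccacatgatgtCGCTgtacacca
PCDHA7, chr5:140834172-140834199: gatggccacatgatgtCGCTctttaccg
PCDHA8, chr5:140841130-140841157: tgaagccacatgatgtCGCTgtctacca
PCDHA9, chr5:140848287-140848314: ttgggccacgtgatgtcactctttgccg
PCDHA11, chr5:140868883-140868910: tttaggcgcaaggtgtCGCTctttactt
PCDHAC1, chr5:140926220-140926247: gcctagaaggtgtggtCGCTcacgttca
PCDHAC2, chr5:140966365-140966392: ctgagcagtccgggttCGCTgtccgcca

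PCDHA9 differs from PCDHA7 within this stretch by the substitutions G1T, A2T, T3G, A10G, G18A and A25G, where PCDHA7 is given first and positions are counted from 1 at the 5′ end of the stretch. G18A lies inside the box. In the beta cluster, 13 of 14 promoters held GTGGCGCT on either strand, against 1.15% of all promoters. The exception was PCDHB1, the first gene of the cluster.
PCDHB1, chr5:141051274-141051301: gactggggagttgagtCGCTcaatgcaa
PCDHB5, chr5:141135179-141135206: ttaggacgcctggtggCGCTgcaggcta
PCDHB12, chr5:141208643-141208670: tggagacgcgtggtggCGCTgcaggata
PCDHB13, chr5:141213865-141213892: tgaggacgcgtggtggCGCTgcaggata
PCDHB15, chr5:141245314-141245341: agacaacgcatggtggCGCTgcaggcta

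The gamma promoters were less alike, and GCCGCTGTT was found in 7 of 20, against 0.322% of all promoters. These longer strings contain the CGCT box or overlap it, and they were picked after the sequences had been seen. PCDHGB4 and PCDHGB5 were identical over all 28 bases, the single pair among the printed and unprinted stretches that was.
PCDHGA1, chr5:141330403-141330430: ttaggactgtgggcgcCGCTgttcacta
PCDHGA2, chr5:141338703-141338730: ttaggcctctgagcgtCGCTgttgacca
PCDHGA3, chr5:141343767-141343794: ttaggcctcttagtgtCGCTgttgacca
PCDHGB4, chr5:141387617-141387644: tgctgactctgggcgcCGCTgttggcca
PCDHGB5, chr5:141397863-141397890: tgctgactctgggcgcCGCTgttggcca
PCDHGC3, chr5:141475880-141475907: ctgggactctgtgtgcCGCTgtcggcca

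A longer core motif of CTCF sites was found on either strand in 1 of 47 member promoters and in 2.41% of all promoters. Its absence says nothing about binding of the factor. Member promoters were poor in CG dinucleotides, the sites of DNA methylation: the median was 7 in 300 bases, against 14 over all promoters, and the median GC content was 39.7% against 58.7%. The median number of CG dinucleotides was 7 both in the 26 promoters of genes with a start peak in all 4 H1975 samples and in the 15 of genes with none in H1975. PCDHAC1 stood at the upper end with 27, and PCDHGC4 and PCDHGC3 held 23 and 18. The 250 bases upstream of the start are printed for the alpha pair that differs in the box, for the gamma pair with the identical stretch, and for PCDHAC1. They are again on the plus strand with the box in capitals where present. Any other CGCT in them is left in lower case.
PCDHA7, chr5:140834019-140834268: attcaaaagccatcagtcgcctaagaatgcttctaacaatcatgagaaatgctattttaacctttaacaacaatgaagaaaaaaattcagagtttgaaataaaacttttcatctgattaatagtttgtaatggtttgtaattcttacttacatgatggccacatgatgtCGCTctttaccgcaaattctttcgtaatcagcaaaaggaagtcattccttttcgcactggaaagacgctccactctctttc
PCDHA9, chr5:140848132-140848381: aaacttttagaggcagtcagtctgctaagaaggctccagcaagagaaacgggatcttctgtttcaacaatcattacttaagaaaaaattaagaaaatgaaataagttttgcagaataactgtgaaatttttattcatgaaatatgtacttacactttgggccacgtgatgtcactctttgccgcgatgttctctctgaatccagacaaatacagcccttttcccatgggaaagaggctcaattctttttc
PCDHGB4, chr5:141387448-141387697: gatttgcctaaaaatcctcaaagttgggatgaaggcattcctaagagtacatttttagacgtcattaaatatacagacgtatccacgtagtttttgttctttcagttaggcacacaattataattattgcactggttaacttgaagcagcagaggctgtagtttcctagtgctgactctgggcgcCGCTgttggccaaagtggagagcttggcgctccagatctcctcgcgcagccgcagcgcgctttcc
PCDHGB5, chr5:141397697-141397946: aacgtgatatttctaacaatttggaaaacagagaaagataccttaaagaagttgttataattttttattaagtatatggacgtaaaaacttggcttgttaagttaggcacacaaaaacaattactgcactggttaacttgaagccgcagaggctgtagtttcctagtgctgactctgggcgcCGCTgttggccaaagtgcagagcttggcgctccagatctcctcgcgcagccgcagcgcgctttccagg
PCDHAC1, chr5:140926049-140926298: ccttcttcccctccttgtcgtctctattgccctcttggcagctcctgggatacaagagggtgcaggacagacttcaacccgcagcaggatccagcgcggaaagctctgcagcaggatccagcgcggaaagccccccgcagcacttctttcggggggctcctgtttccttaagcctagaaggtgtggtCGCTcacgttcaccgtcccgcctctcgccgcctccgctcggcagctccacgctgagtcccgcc

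The lists held 43525 and 41027 peaks in the H1975 DMSO samples, 27682 and 22133 in the H1975 ACBI1 samples, 50347 and 49945 in the HCC44 DMSO samples, and 26313 and 24862 in the HCC44 ACBI1 samples. The files give no read number, so the depth of a sample is unknown, and a gene without a listed peak cannot be called closed. Each peak carries the authors' −log10 q, a measure of how far it stands out from its own library's background. It depends on depth and is given below to describe a peak within its list, not to compare levels between samples; values are listed with DMSO before ACBI1 and replicate 1 before replicate 2. The lowest −log10 q in a list was between 10 and 10.2. Nothing in these files measures copy number or methylation of the clusters, and their part in the results was not tested.

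Start peaks, meaning listed peaks that come within 1 kb of a gene's start, were found at most clustered protocadherin genes in H1975 and at few in HCC44. With DMSO, 34 and 33 members had one in the H1975 samples, and 9 and 6 in the HCC44 samples. With ACBI1, the numbers were 33 and 32 in H1975 and 8 and 7 in HCC44. Every H1975 sample lay above every HCC44 sample. The difference, HCC44 minus H1975, was −26 with DMSO, −25 with ACBI1 and −25.5 over both treatments, against an SD between replicates of 1.22. With lists of equal length it was −7 with DMSO and −26.5 with ACBI1. The two-sided exact permutation p over both treatments was 0.0556, which is the smallest that the 36 arrangements of these samples allow; within 1 treatment it was 0.333, again the smallest possible. No permutation test of these samples can pass 0.05.

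A start peak in both DMSO samples was seen at 32 of 53 members in H1975, where the share of all genes was 60.1%. In HCC44 it was seen at 6 of 53 members, and the share of all genes was 60.8%. With lists as deposited, the members were thus near the background share in H1975 and far under it in HCC44. With lists of equal length, 7 and 9 members had a start peak in the H1975 DMSO samples. The share of all genes was not taken in that setting. Counted gene by gene, 23 of 53 members had a start peak in all 4 H1975 samples and in no HCC44 sample, a pattern shown by 1.97% of all genes; the count was 10 with a minimum −log10 q of 20 and 4 with lists limited to equal length. The reverse pattern was shown by 0 members and by 1.42% of all genes. A start peak in all 8 samples was found at 5 members, against 54% of all genes, and 15 members had none in any sample, against 33.9% of all genes. The other 10 members had a peak in some samples of a line.

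**Figure D1:**
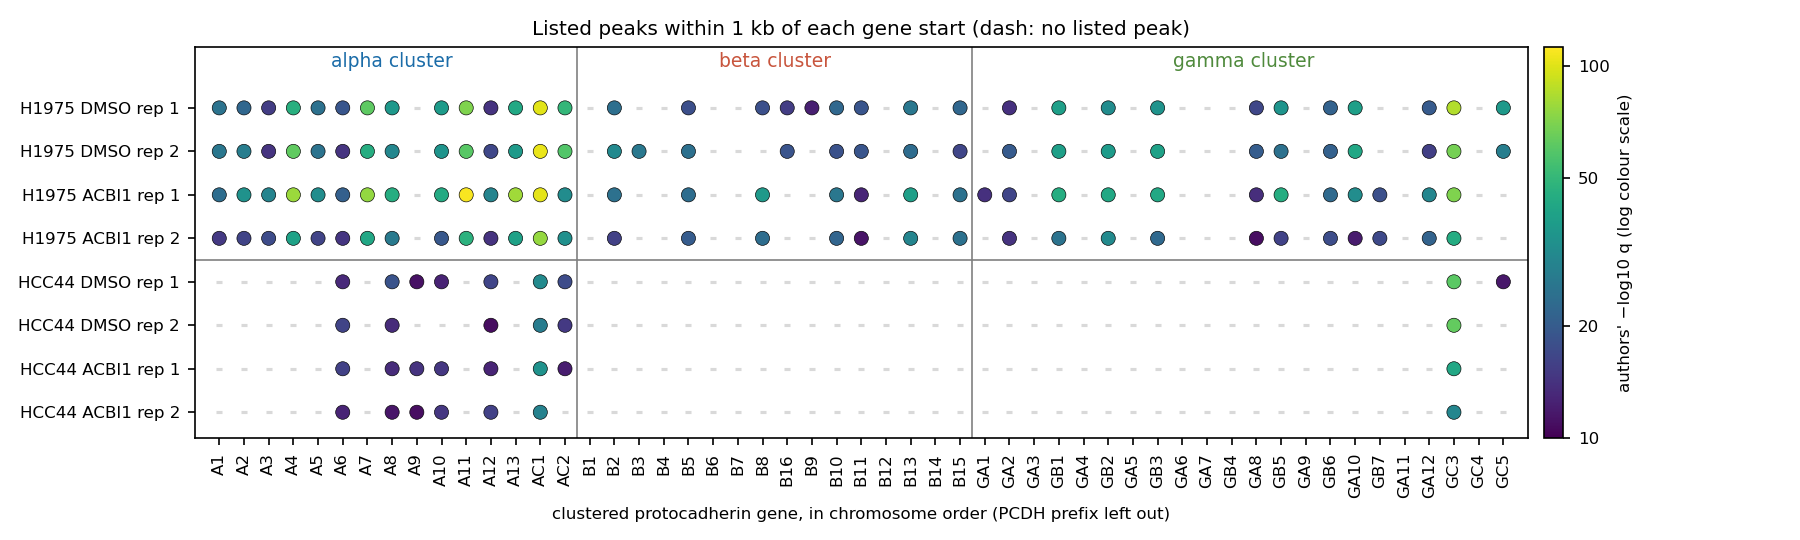
Start peaks of the 53 clustered protocadherin genes, in chromosome order along the x axis, in each of the 8 samples (rows). A filled point marks a listed peak within 1 kb of the gene start, coloured by the authors' −log10 q on a log scale, and a dash marks none; the 4 H1975 rows are filled along most of the alpha cluster and in parts of the other 2, while the HCC44 rows hold 6 to 9 points each.

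In the alpha cluster, 14 members had a start peak in each of the 4 H1975 samples, and 7 and 5 (DMSO) or 7 and 6 (ACBI1) in the HCC44 samples. Of the genes PCDHA1 to PCDHA13, whose first exons follow each other as near copies, 12 of 13 had one in all 4 H1975 samples. The first gene, PCDHA1, had −log10 q values of 25.1 and 26 with DMSO and 23.4 and 14.9 with ACBI1 in H1975, and no peak in HCC44. PCDHA2 had 22.3 and 27.7, then 33.9 and 16.3. PCDHA3 had 15.4 and 14.4, then 29.7 and 17.3. These 3 genes were listed with and without ACBI1.

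PCDHA4 was one of the stronger of the group in H1975, at 46 and 62.4 with DMSO and 78.1 and 40.3 with ACBI1. PCDHA5 had 24.4 and 25, then 32.4 and 16.2. PCDHA7 had 61.8 and 44.9, then 75.8 and 42.2. In each of the 4 lists, PCDHA4 and PCDHA7 ranked above PCDHA5. PCDHA11 held the strongest peak among PCDHA1 to PCDHA13 in each H1975 sample but DMSO replicate 2, where PCDHA4 did, at 70.2 and 59.6 with DMSO and 110 and 47.0 with ACBI1. PCDHA13 had 42.6 and 36.9, then 79.6 and 40.0. None of these 8 genes had a listed start peak in any HCC44 sample. Of these, PCDHA1, PCDHA7 and PCDHA11 are among the genes with a stretch printed above.

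PCDHA6, PCDHA8 and PCDHA12, chosen for mention after their values were seen, had start peaks in all 8 samples. PCDHA8 had −log10 q values of 36.3, 30.6, 44.5 and 26.9 in H1975 (DMSO, then ACBI1) and 18.6, 13.5, 13.5 and 11.5 in HCC44. PCDHA6 had 19.1, 14.4, 20.8 and 14.5 in H1975 and 13.2, 16.3, 16 and 12.7 in HCC44. PCDHA12 had 14.3, 16.8, 29.9 and 14.3 in H1975, and 16.4, 10.8, 12.7 and 15.9 in HCC44. In HCC44 these peaks stood near the lower limit of the lists, between the percentiles 0.312 and 19.9 of their own list by −log10 q. PCDHA10 had 37.2, 35.0, 43.6 and 19.3 in H1975, and 12.6, none, 14.6 and 14.6 in HCC44.

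PCDHA9, also chosen after its values were seen, went the other way and was the sole member with more start peaks in HCC44 than in H1975. It had no listed peak in any H1975 sample. In HCC44 its −log10 q was 11.2 in DMSO replicate 1, and 14.3 and 10.9 in the ACBI1 samples, with none in DMSO replicate 2. All 3 values were close to the lower limit of the lists. PCDHA9 is the member whose promoter, printed above, does not hold the letters CGCT. Aligned end to end with gaps allowed, the reference promoters of PCDHA7 and PCDHA9 were identical at 193 positions, 64.3% of their 300 bases. The lines' own sequences were not analysed here.

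At the C-type end of the alpha cluster, PCDHAC1 had the strongest start peak of the family in the DMSO samples of H1975. Its −log10 q was 101 and 104 with DMSO and 102 and 76.8 with ACBI1 in H1975, and 31.6 and 27.3 with DMSO and 34.0 and 29.2 with ACBI1 in HCC44. The authors' fold enrichment of this peak in H1975 was 10.2, 10.6, 8.80 and 10.3, and in HCC44 it was 6.57, 6.31, 5.94 and 5.89. It ranked between the percentiles 74.1 and 89.4 of its list in H1975 and between 45.2 and 63.2 in HCC44. PCDHAC2, the last alpha gene, had in H1975 49.8 and 58.2 in the DMSO samples, then 32.1 and 33.2 in the ACBI1 samples. In HCC44 it had 17.4 and 15.0 with DMSO, 12.1 in ACBI1 replicate 1 and none in replicate 2. It was thus listed in 7 of the 8 samples.

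The beta cluster was the one with no start peak in any HCC44 sample. In H1975, 9 and 8 beta genes had a start peak with DMSO and 7 and 7 with ACBI1, and 6 of the 16 had one in all 4 samples. PCDHB2 had −log10 q values of 24 and 31.2 with DMSO and 24.4 and 16 with ACBI1. PCDHB5 had 17.8, 24.1, 23.4 and 20.1, and PCDHB10 had 22.4, 18.4, 26.1 and 21.8, in the same order. PCDHB11 had 19 in both DMSO samples, then 12.9 and 11.4, and was the weakest of the 6 within each ACBI1 list. PCDHB13 had 26.1 and 23.2, then 38.6 and 30.1. PCDHB15, the last of the cluster, had 22.2 and 16.5, then 24.6 and 24.7. PCDHB13 was the strongest of the 6 in every H1975 list but that of DMSO replicate 2, where PCDHB2 was.

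PCDHB1, the first gene of the beta cluster and the one without GTGGCGCT, had no start peak in any sample, and the same held for PCDHB4, PCDHB6, PCDHB7, PCDHB12 and PCDHB14. PCDHB16 had start peaks in both H1975 DMSO samples, at 15.4 and 18.8, and in neither ACBI1 sample. PCDHB8 had 18.0 in DMSO replicate 1, none in replicate 2, and 36.7 and 23.4 with ACBI1. PCDHB3 and PCDHB9 each had a peak in a single DMSO sample, at 26.4 in replicate 2 and at 12.4 in replicate 1. Aligned with gaps allowed, the reference promoters of PCDHB8 and PCDHB13 were identical at 243 positions, 81% of their 300 bases. PCDHB12 and PCDHB13 have the closely similar stretches printed above. How reads that match several of these near copies were placed is not given in the sources used here, so the gene to which a beta peak belongs is uncertain to that extent.

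In the gamma cluster, start peaks in all 4 H1975 samples were found at 5 of the 7 PCDHGB genes and at 4 of the 12 PCDHGA genes, none of which had one in HCC44. PCDHGB1 had −log10 q values of 38.7 and 38.6 with DMSO and 44.6 and 25 with ACBI1. PCDHGB2 had 32.1, 37.4, 42.8 and 31.4, and PCDHGB3 had 34.7, 39.8, 42.6 and 22.6. PCDHGB5 had 34.9 and 24.4, then 44.6 and 16.1, and PCDHGB6 had 21.2, 20.9, 22.9 and 17.6. Within each list but that of ACBI1 replicate 2, PCDHGB6 was the weakest of the 5.

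Among the PCDHGA genes, PCDHGA2 had 14 and 19.9 in the H1975 DMSO samples, then 16.4 and 14.3 in the ACBI1 samples. PCDHGA8 had 16.8 and 20.3, then 13.7 and 10.9, and PCDHGA10 had 38.9 and 42.1, then 32.3 and 12. PCDHGA12 had 19.8 and 15.6, then 30.3 and 21.4. PCDHGA10 was the strongest of the 4 in each list but that of ACBI1 replicate 2, where PCDHGA12 was. The PCDHGA12 peak was the widest of the family, at 2079 and 2128 bp with DMSO. PCDHGA1, the first gamma gene, had a start peak in H1975 ACBI1 replicate 1 alone, at 14. PCDHGB7 had none with DMSO, and 18.1 and 17.0 with ACBI1. The genes PCDHGA3, PCDHGA4, PCDHGA5, PCDHGA6, PCDHGA7, PCDHGA9, PCDHGA11, PCDHGB4 and PCDHGC4 had none in any sample.

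PCDHGB4 and PCDHGB5, whose printed stretches are identical, thus stood apart in the lists, with 0 of 4 and 4 of 4 H1975 samples. Aligned with gaps allowed, their 300-base reference promoters were identical at 243 positions (81%), as in the beta pair above. The placing of reads between these near copies is therefore uncertain here too. PCDHGC3, the gamma C-type gene with a start peak in all 8 samples, had −log10 q values of 85.0 and 67.4 with DMSO and 70.5 and 44.2 with ACBI1 in H1975. In HCC44 it had 60.5 and 62.9, then 42.3 and 30.4, the strongest start peak of the family in that line in each of these samples. Its fold enrichment in H1975 was 9.15, 8.25, 7.39 and 8.26, and in HCC44 it was 7.45, 7.51, 6.56 and 5.19. PCDHGC5, the last gamma gene, had 36.5 and 27.8 in the H1975 DMSO samples, 11.7 in HCC44 DMSO replicate 1, and none in the other 5 samples.

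Start peaks of the clusters ranked lower in their lists, and were narrower, than the peaks at most gene starts. In the DMSO samples of H1975, the median percentile of −log10 q within the list was 45.5 and 38.3 for alpha, 12.9 and 16.5 for beta, and 42.4 and 29.7 for gamma, against 80.8 in both samples for the peaks at all gene starts. The comparison of the lines was also read within ranges of this percentile, an addition made after the data had been seen; both the ranges and the genes in them are set by H1975 values alone. Of the 30 members with a start peak in all 4 H1975 samples, 23 had none in HCC44, against 3.4% of all genes with such a peak. Between the percentiles 0 and 25 it was 12 of 14 members (85.7%) against 16.3% of 350 genes. Between 25 and 50 it was 7 of 9 (77.8%) against 7.63% of 773 genes, and above 50 it was 4 of 7 (57.1%) against 2.43% of 8014 genes. The share was higher among the members in each of the 3 ranges, and it was highest in the lowest range in both sets. The members lie side by side, are not independent of each other and were taken here through the line in which they are high, so these shares are a description and support nothing further.

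**Figure D2:**
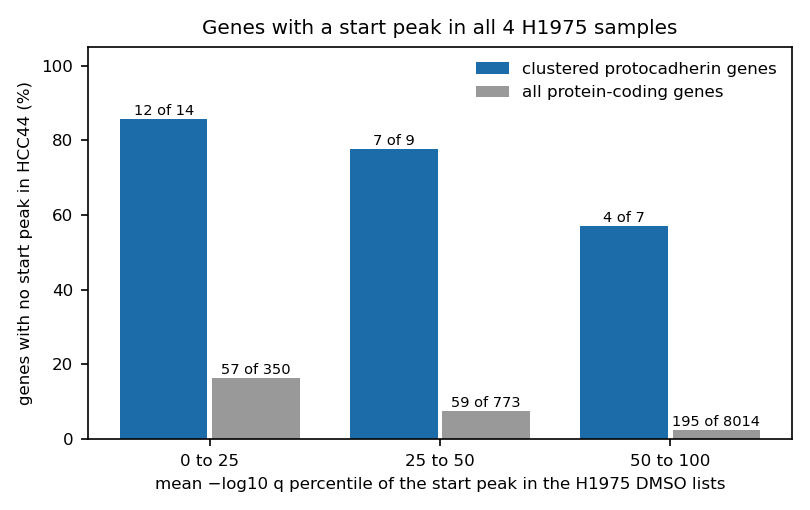
Share of genes with no start peak in any HCC44 sample, in percent, among genes with a start peak in all 4 H1975 samples, by the mean percentile of the start peak's −log10 q in the H1975 DMSO lists. Blue bars are the clustered protocadherin genes and grey bars all protein-coding genes, with the numbers of genes above; the blue bars stand at 85.7%, 77.8% and 57.1% and the grey bars at 16.3%, 7.63% and 2.43%.

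The start peaks also differed in shape between the 3 clusters. With DMSO in H1975, alpha peaks had a median width of 740 and 724 bp in the 2 replicates, beta peaks 364 and 318 bp, and gamma peaks 549 and 496 bp, against 1108 and 1042 bp for the peaks at all gene starts. The alpha peaks reached further into the gene: their median centre lay 277 and 286 bp downstream of the start, that of beta peaks 83 and 68.3 bp, and that of gamma peaks 179 and 140.5 bp. The order alpha, gamma, beta was the same in both replicates for width and for centre. It was also the order of the median −log10 q, at 36.75 and 32.8 for alpha, 34.7 and 27.8 for gamma, and 19 and 21.1 for beta. Whether width and centre follow the strength of a peak was not tested. Peaks of 1 cluster share a library and similar sequence, so this is a description of 14 alpha, 9 and 8 beta, and 11 gamma peaks. In HCC44, the median width of the alpha start peaks was 558 and 635 bp with DMSO, and their median centre lay 291 and 252.5 bp downstream.

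**Figure D3:**
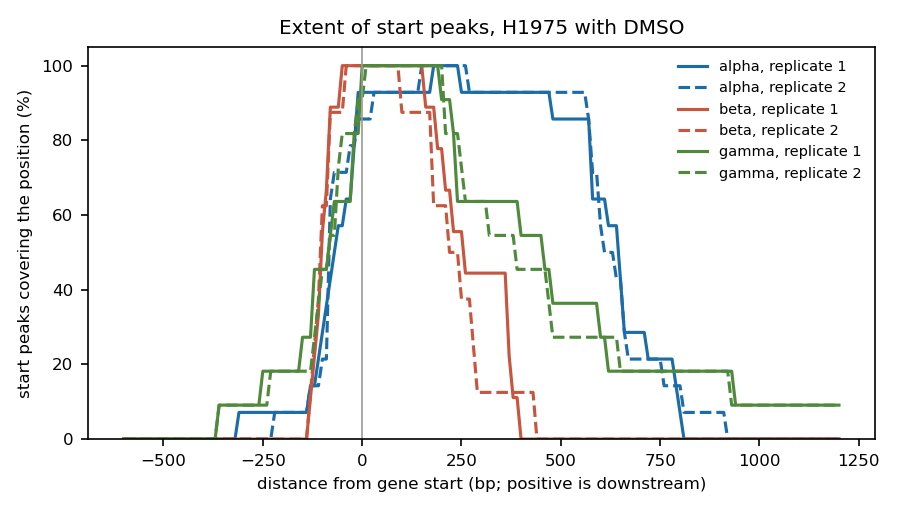
Share of start peaks, in percent, that cover each position from upstream (left) to downstream (right) of the gene start in bp, for the alpha, beta and gamma clusters (colours) in the 2 H1975 DMSO replicates (solid and dashed lines). Beta peaks end soonest after the start, with a median width of 364 and 318 bp, while most alpha peaks extend beyond 500 bp.

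With ACBI1, the number of listed peaks assigned to the clusters was a little lower in H1975 and about the same in HCC44. It was 42 and 42 with DMSO and 38 and 37 with ACBI1 in H1975, so that both ACBI1 samples lay under both DMSO samples, and 12 and 9 with DMSO and 10 and 9 with ACBI1 in HCC44, where the groups overlapped. The change, ACBI1 minus DMSO, was −4.5 peaks in H1975 (SD between replicates 0.5, n = 2 per group, two-sided exact permutation p = 0.333) and −1 in HCC44 (SD 1.58, exact permutation p = 1). Over both lines it was −2.75 (exact permutation p = 0.167). The percent change of the mean was −10.7% in H1975 and −9.52% in HCC44, and that of the length of the whole list was −41.1% and −49.0%. As a share of the list, cluster peaks therefore stood higher with ACBI1, and with all lists limited to equal length the change turned positive, at 20.5 peaks in H1975 and 3.5 in HCC44.

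In H1975 there were 9.65 and 10.2 cluster peaks per 10000 listed peaks with DMSO and 13.7 and 16.7 with ACBI1. In HCC44 there were 2.38 and 1.80 with DMSO and 3.80 and 3.62 with ACBI1. Both ACBI1 samples lay above both DMSO samples in each line. The difference was 5.28 in H1975 (SD 1.52) and 1.62 in HCC44 (SD 0.304), and the exact permutation p over both lines was 0.0556, the smallest possible. This share depends on the other peaks of the list as much as on the clusters. Peaks at all gene starts numbered 8483 and 8502 with DMSO and 8353 and 8160 with ACBI1 in H1975. In HCC44 they numbered 8594 and 8579, then 8137 and 8055. Their share of the list was thus also higher with ACBI1 in each line, so a higher share was not particular to the clusters. The length covered by cluster peaks was 25.2 and 24.2 kb with DMSO and 23.6 and 18.3 kb with ACBI1 in H1975. In HCC44 it was 7.6 and 5.68 kb, then 6.09 and 5.27 kb. Its change was −3.74 kb in H1975 (SD 2.67) and −0.96 kb in HCC44 (SD 1.04), with an exact permutation p of 0.111 over both lines. Without 1 replicate the H1975 change ranged from −6.37 kb (without ACBI1 replicate 1) to −1.11 kb (without ACBI1 replicate 2), with lists of equal length the changes were 10.1 and 2.36 kb, and with a minimum −log10 q of 20 that of HCC44 was 0.308 kb.

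Split by cluster, the alpha genes held 16 peaks in each DMSO sample of H1975 and 15 in each ACBI1 sample, and 7 and 5, then 7 and 6, in HCC44. The beta genes had 11 and 11, then 9 and 9, in H1975, and 2 in every HCC44 sample. The gamma genes had 15 and 15, then 14 and 13, in H1975, and 3 and 2, then 1 and 1, in HCC44. The gamma cluster was the one in which both ACBI1 samples lay under both DMSO samples in each line, with a change of −1.5 peaks in either line; with lists of equal length the changes over both lines were 2.25 for gamma, 4.25 for beta and 5.5 for alpha, and the HCC44 change of gamma was −1. With a minimum −log10 q of 20, the change over both lines was −3 for gamma (−5 in H1975, −1 in HCC44), 1 for beta and −0.5 for alpha. Its exact permutation p over both lines was 0.0556, the smallest possible, and 0.167 after Benjamini-Hochberg adjustment over the 3 clusters. For beta the change over both lines was −1 (exact permutation p = 0.333, adjusted 0.5), and for alpha −0.25 (p = 1, adjusted 1). In H1975 the percent change of the alpha, beta and gamma counts was −6.25%, −18.2% and −10%. In HCC44 it was 8.33%, 0% and −60%, where gamma went from a mean of 2.5 peaks to 1. As a mean of the lines, alpha exceeded gamma by 36 points and beta by 10.1 points, and beta exceeded gamma by 25.9 points, an order of beta and gamma opposite to that in H1975. None of these 3 differences was distinguishable (exact permutation p of 0.194, 0.389 and 0.333, each 0.389 after adjustment over the 3).

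**Figure D4:**
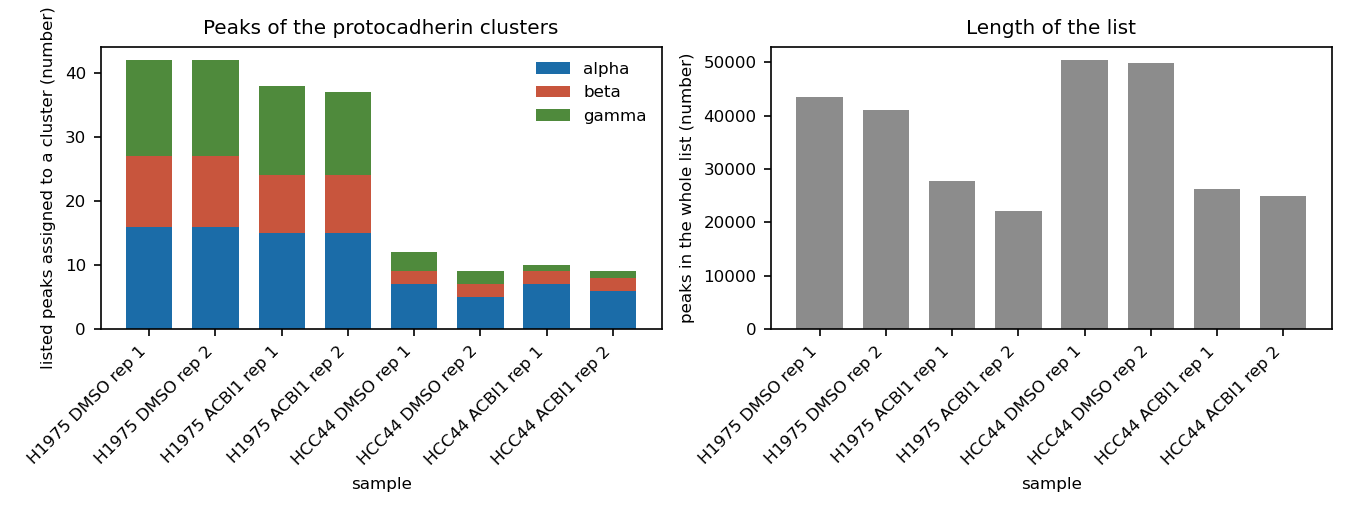
Left, number of listed peaks assigned to alpha, beta and gamma genes (stacked bars) in each sample; right, length of the whole peak list in the same samples. The cluster totals are 42, 42, 38 and 37 in H1975 and 12, 9, 10 and 9 in HCC44, while the list of every ACBI1 sample is shorter than that of every DMSO sample.

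With lists as deposited, the mean number of members with a start peak differed between treatments by at most 1 in either line. The change of members with a start peak was −1 in H1975 (SD 0.707) and 0 in HCC44 (SD 1.58), and the exact permutation p over both lines was 0.778. With lists of equal length the change was 22 in H1975 and 2.5 in HCC44. In H1975, 30 of the 32 start peaks present in both DMSO samples were also in both ACBI1 samples, where the background over all genes was 96.2%. The 2 in neither ACBI1 sample were PCDHB16 and PCDHGC5, and the background share for that fate was 1.88%. PCDHGB7 was the 1 member with a start peak in both ACBI1 samples and neither DMSO sample of H1975, and HCC44 had 0 such members. Among all genes with a start peak in neither DMSO sample, 0.41% of 6105 in H1975 and 0.571% of 5955 in HCC44 had one in both ACBI1 samples. In HCC44, 5 of 6 were in both ACBI1 samples (background 93.4%), 0 were in neither (4.31%), and the remaining gene, PCDHAC2, kept its peak in 1 sample. The retention of the clusters' start peaks was thus near that of gene starts in general in both lines.

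Over all regions assigned to members, starts or not, 34 of the 39 present in both H1975 DMSO samples were retained, meaning listed in all 4 samples (87.2%), and 3 were lost, meaning in neither ACBI1 sample (7.69%); without DMSO replicate 1 or 2 the number lost was 6 or 5. In the genome, 52.3% of such regions were retained and 36.8% lost. In HCC44, 7 of 9 were retained and 1 was lost, against 44.6% and 49.2% in the genome. A gained region, in both ACBI1 and neither DMSO sample, was found once in H1975, at PCDHGB7, and 0 times in HCC44, while 3.02% and 5.88% of the genome's regions listed in both ACBI1 samples were gained; with lists of equal length, 19 and 3 cluster regions were gained. Gene starts are mostly retained everywhere, and they make up more of the clusters' regions than of the genome's, so the 2 kinds were also counted apart. At starts, 30 of 32 (93.8%) were retained in H1975 and 5 of 6 (83.3%) in HCC44, against 95.9% and 93.3% of all start regions, and 2 and 0 were lost, against 2.13% and 4.42%. Away from starts, 4 of 7 (57.1%) were retained in H1975 and 2 of 3 (66.7%) in HCC44, against 39.8% and 33.3% of all such regions, and 1 was lost in each line, against 46.7% and 59.6%. With lists of equal length, 9 regions were retained in H1975 and 1 in HCC44, and with a minimum −log10 q of 20, 15 and 2. Against their own kind, the members' shares were near the background at starts, and away from starts they rest on 7 and 3 regions.

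**Figure D5:**
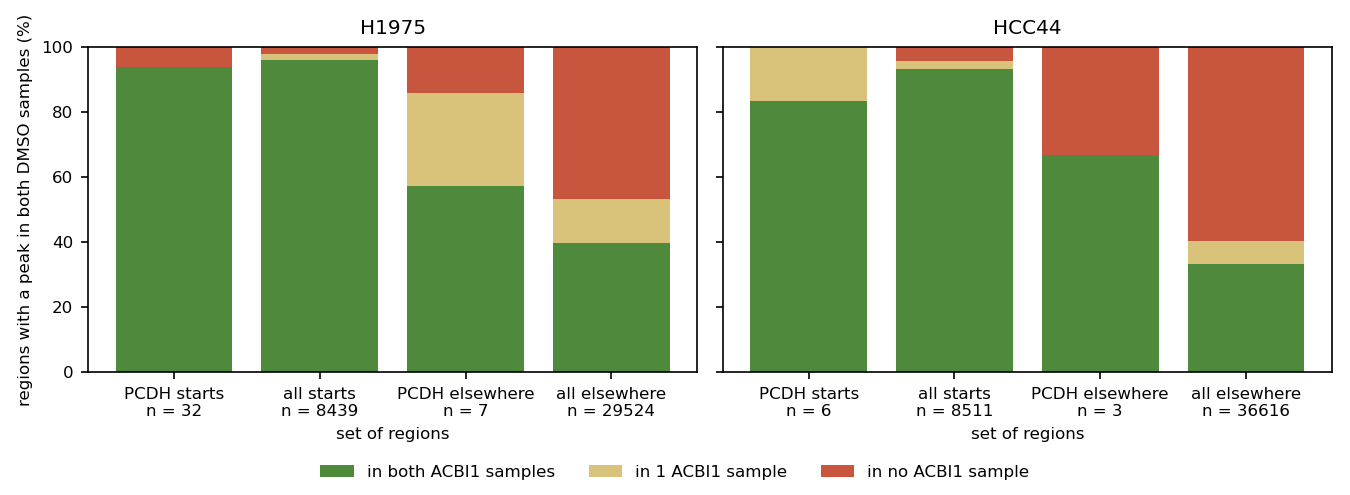
Fate of regions listed in both DMSO samples of H1975 (left) or of HCC44 (right), as percent of regions in both (green), 1 (yellow) or no (red) ACBI1 sample. Regions of the clustered protocadherins (PCDH) at gene starts and elsewhere stand beside the same kinds of region in the whole genome, with their numbers on the x axis; at starts 93.8% and 83.3% of the cluster regions were in both ACBI1 samples, against 95.9% and 93.3% of all starts.

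The regions of the clusters away from starts numbered 10, and those present in both DMSO samples of a line are described one by one. The shared 3′ part of the gamma genes held a region at chr5:141508903-141509570, inside every gamma gene and 20156 bp downstream of the PCDHGC5 start. Its −log10 q was 59.8 and 49.1 with DMSO and 15.6 and none with ACBI1 in H1975, and 45.3 and 36.7 with DMSO and none in either ACBI1 sample of HCC44. It was the 1 cluster region lost in HCC44, and over both lines it was listed in 4 of 4 DMSO samples and in 1 of 4 ACBI1 samples. In the shared 3′ part of the alpha genes, a region at chr5:141004068-141004523 had 85.3 and 69, then 36.1 and 14.6, in H1975, and no peak in HCC44. Inside PCDHGA1, a region at chr5:141334417-141334758 had 40.0 and 49.5 with DMSO and none with ACBI1 in H1975, so it was lost, and it too had no peak in HCC44. Exon and intron positions were not used here.

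Upstream of PCDHGA1, between TAF7 and the gamma cluster, a region at chr5:141328144-141328551 had 54.6 and 69.4 with DMSO, none and 14.8 with ACBI1 in H1975, and none in HCC44. Its neighbour at chr5:141326123-141326669 had 21.6, 33.4, 40.0 and 36.3 in H1975 and none in HCC44. In both DMSO samples the first of these was the stronger, and in both ACBI1 samples the second was. A pair of regions was listed in all 8 samples. The first, at chr5:141039867-141041411 between the end of the alpha cluster and PCDHB1, had H1975 values of 58.5, 46.2, 95.4 and 46.1 and HCC44 values of 19.5, 19.1, 21.2 and 20.4. The second, at chr5:141084510-141085000 between PCDHB1 and PCDHB2, had 46.1, 37.7, 45.3 and 29.1 in H1975 and 29.7, 19.4, 22.2 and 16.3 in HCC44. These were the 2 beta peaks of every HCC44 sample, so that all HCC44 peaks assigned to beta genes lay between genes and none at a start.

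The clusters were set beside the genes around them. HARS1, HARS2 and ZMAT2 before the alpha cluster, TAF7 between the beta and gamma clusters, and DIAPH1 after the gamma cluster, whose start lies beyond the window, had a start peak in all 8 samples. HARS1 and HARS2 encode histidyl-tRNA synthetases, TAF7 a subunit of the general transcription factor TFIID, and DIAPH1 a formin that nucleates actin filaments. The TAF7 start region, inside the span of the clusters, had −log10 q values of 82.1, 81.5, 125 and 86.3 in H1975, and in HCC44 of 49.4, 52.5, 61.3 and 58.7. The 3 vault RNA genes before the alpha cluster, VTRNA1-1, VTRNA1-2 and VTRNA1-3, each overlapped a region listed in all 8 samples. Of the 14 regions assigned to flanking genes, 2 were listed in H1975 alone, 2 in HCC44 alone and 10 in both lines. Of the 48 regions assigned to members, 36 were listed in H1975 alone, 1 in HCC44 alone and 11 in both.

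By cluster, 11 of 18 alpha, 11 of 13 beta and 14 of 17 gamma regions were listed in H1975 alone. Peaks assigned to flanking genes numbered 11 and 12 in the H1975 DMSO samples, 10 in each H1975 ACBI1 sample, 11 in each HCC44 DMSO sample and 8 in each HCC44 ACBI1 sample. The lines thus held similar numbers of peaks at the genes around the clusters. Over the whole genome, 15.5% of the merged regions were listed in at least 1 H1975 sample and no HCC44 sample, the definition used for these counts.

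The 3 lists of related genes were read in the same way, by a peak within 1 kb of the start. Of the genes known to act on the clusters, such as CTCF, the cohesin subunits and loader, the repressor SMCHD1, and the enzymes that add or remove DNA methylation, 17 of 20 were measured. All 17 had a start peak in both H1975 DMSO samples and 15 in both HCC44 DMSO samples, and the start peaks of 16 and 15 were also in both ACBI1 samples, with 0 lost; over all genes, 60.1% and 60.8% had a start peak in both DMSO samples. TET3, an enzyme that oxidises methylated cytosine, and WIZ, a zinc finger protein, had a start peak in all 4 H1975 samples and in no HCC44 sample, as had 1.97% of all genes. TET1, of the same enzyme family as TET3, lacked a start peak in H1975 ACBI1 replicate 2. The genes for CTCF, SMC1A, SMC3, STAG1, STAG2 and NIPBL had one in all 8 samples. A start peak gives no protein level.

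Of the protocadherins outside the clusters, 10 of 12 were measured. PCDH1 and PCDH9 had start peaks in all 8 samples, PCDH7 had one in every sample but the HCC44 ACBI1 samples, and 7 had none in any. The absence from HCC44 that marked 23 clustered members was thus seen at 0 of the 3 that had a start peak in H1975. Among all genes with a start peak in all 4 H1975 samples it was seen at 3.4%, so a count of 0 of 3 does not tell these genes from others. Of the other atypical cadherins, 7 of 11 were measured. FAT1, a giant cadherin, CELSR3, a cadherin of planar cell polarity, and CDHR2, a cadherin of the intestinal brush border, had start peaks in all 8 samples. CELSR2 had one in all 4 HCC44 samples and in H1975 DMSO replicate 2 alone, and FAT2, DCHS2 and CDHR1 had none.

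The line difference held in direction with other thresholds, with smaller counts. With a minimum −log10 q of 20, start peaks were found at 23 and 24 members with DMSO and 28 and 17 with ACBI1 in H1975, and at 2 in every HCC44 sample, and 10 members showed the pattern of all 4 H1975 samples and no HCC44 sample (background 2.21%). With every list limited to its 22133 strongest peaks, the length of the shortest, it was 7 and 9, then 28 and 32, in H1975, and 1 and 1, then 3 and 4, in HCC44. In this setting 4 members showed the pattern (background 1.56%), and the treatment difference in H1975 changed sign. By construction it removes more of the weak peaks from the longer DMSO lists, where many cluster peaks rank low, than from the ACBI1 lists. The number of cluster peaks per treatment can therefore be read in either direction, depending on whether lists are taken as deposited or at equal length.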

How the data were processed

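The data were 8 ATAC-seq peak lists, each from a single sample, with replicates kept apart. The authors aligned reads with BWA to hg38, per the submitters' processing notes; the peak caller, its settings, the filters and any shift of reads for the transposase are not given in the sources used here. Each deposited list has 9 columns in the broadPeak layout. The fold enrichment of a peak is the authors' ratio over background, and its p-value and q-value were deposited on a −log10 scale. A score column was also deposited and left aside. These values depend on the library: they were used to rank and filter peaks within a list, and where those of several samples are printed together they show no change in level.

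Peaks of the 8 lists that shared at least 1 bp were merged. Each merged region went to the nearest protein-coding gene of the RefSeq table of GRCh38.p14, the same assembly as hg38; where nested genes tied, it went to the one with the nearest start. The design named a start by strand, and the strand came from the RefSeq promoter table. The 6 members without an entry there were given the plus strand of the other members. Any other gene without a strand there was left out. Numbers of peaks, covered length and genes with a start peak were taken per sample and compared by exact permutation over samples, two-sided, within line or treatment (36 arrangements, or 6 within 1 line). Peak lists hold no read counts, and precision is limited to what 2 replicates give. Named with their values were members that differ between the lines in all samples or between treatments in all samples of a line, the first and last gene of each cluster, and flanking genes; any other was chosen after its values were seen.

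The members and gene lists were chosen with earlier results of these data known. The shares per 10000 peaks, the ranges of percentile, the count of members in H1975 alone and the longer promoter strings were added after seeing the data. Alternatives were a −log10 q minimum of 20, equal list lengths, joining at 1200 bp, 50% cover, windows of 500 bp and 2 kb, other merging and assignment rules, a replicate block, and the omission of single replicates. Functions were tested on simulated data. Python 3.11.15 was used with numpy 2.4.6, pandas 2.3.3, scipy 1.17.1 and matplotlib 3.10.9.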

Additional observations from a re-analysis of the deposited data

How the results depend on the processing

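Of 157 values under other settings, for 31 results, 17 reversed in direction and 12 counts of regions or genes moved by more than 1.5 times. The other 128 did neither, but they include changes from or to 0. Beta peaks in HCC44, for example, changed by 0 as deposited and by 1 with a minimum −log10 q of 20. They also include the differences with a replicate block, which cannot depart from the main ones. None of the 24 tested results can pass 0.05 in any setting. Some that kept direction changed in size: with equal list lengths the line difference in members with a start peak was −7 with DMSO, and H1975 cluster peaks per 10000 changed by 9.26; with a minimum −log10 q of 20, gamma peaks changed by −5 in H1975. With equal list lengths, these values of ACBI1 minus DMSO turned positive, while gamma peaks in HCC44 did not (−1): cluster peaks 20.5 in H1975, 3.5 in HCC44 and 12 over both lines; alpha peaks 8.5 in H1975 and 5.5 over both; beta 6.5 and 4.25; gamma 5.5 and 2.25; covered length 10.1, 2.36 and 6.22 kb; members with a start peak 22 in H1975 and 12.3 over both. Members with a start peak and beta peaks in HCC44, whose changes were 0 as deposited, changed by 2.5 and 2 in this setting. Retained regions then numbered 9 in H1975 and 1 in HCC44, gained regions 19 and 3, and members with a start peak in all H1975 and no HCC44 samples 4. By construction this setting takes more weak peaks from the longer DMSO lists. With a minimum −log10 q of 20, beta peaks changed by 1 in H1975 and by 1 over both lines, covered length in HCC44 by 0.308 kb, retained regions numbered 15 and 2, gained regions 2 and 1, and members in all H1975 and no HCC44 samples 10; the cause was not tested. With 50% cover, 5 regions were lost and 0 gained in H1975, since a peak then counts in fewer regions.

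Leaving out each replicate in turn, cluster peaks changed by −5 to −4 in H1975, −2.5 to 0.5 in HCC44 (0.5 without HCC44 DMSO replicate 1) and −3.5 to −2 over both lines. Alpha peaks ranged from −0.5 (without HCC44 DMSO replicate 2) to 1.5 in HCC44 and from −0.75 to 0.25 over both (0.25 without HCC44 DMSO replicate 1). Members with a start peak changed by −1.25 to 0.25 over both lines (0.25 without HCC44 DMSO replicate 1). Regions lost in H1975 numbered 4 to 6 (6 without DMSO replicate 1, 5 without DMSO replicate 2) and regions gained 1 to 2 (2 without DMSO replicate 1 or ACBI1 replicate 2). In HCC44, 1 to 2 regions were lost (2 without DMSO replicate 2 or ACBI1 replicate 1) and 0 to 2 gained (2 without DMSO replicate 1). Covered length changed by −6.37 to −1.11 kb in H1975 and by −1.92 to −0.003 kb in HCC44. The line difference in members with a start peak ranged from −26.3 to −24.8 over both treatments, and 23 to 24 members had one in all H1975 and no HCC44 samples.

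A replicate block leaves each difference as it is, since every line has both numbers in both treatments: cluster peaks changed by −2.75 over both lines with it. The p-values do change. Over both lines the exact permutation p with the block was 0.25 for cluster peaks and 0.125 for gamma peaks, against 0.167 and 0.0556 without it. The correlation of replicate differences between treatments was 0.266 in H1975 and 0.136 in HCC44. There are 2 pairs a line, and the labels do not say what samples with the same number share. Unknown depth limits all counts: many cluster peaks rank low in their lists, and whether a peak near the threshold is listed can depend on depth. Some, such as the start peaks of PCDHAC1 and PCDHGC3 with DMSO in H1975, rank high.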
